A study of Homo sapiens with 6 samples.

Results

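The FOS and JUN family was examined in COV434, an established human ovarian line grouped by the study with SCCOHT, a rare small cell cancer of the ovary that has lost BRG1. The members are the 4 FOS genes (FOS, FOSB, FOSL1 and FOSL2) and the 3 JUN genes (JUN, JUNB and JUND). They were chosen by name, and all 7 were found among the 19899 genes of the expression table. RNA-seq was performed on 3 Control samples, transfected with the empty plasmid pCDNA3-neo, and 3 BRG1 samples, transfected with PBJ5-BRG1, each numbered 1 to 3. BRG1 is the product of SMARCA4 and a motor subunit of the SWI/SNF complex, which moves nucleosomes. Both groups also received the puromycin resistance plasmid pBABE-puro, had puromycin (2 to 3 µg/ml) added after 24 hours and were harvested after 3 days of selection. The cells were a selected population rather than a clone. Where fewer cells of a kind and less RNA per cell would give the same bulk value, they cannot be told apart here.

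FOS and JUN proteins are the core of AP-1, a transcription factor that binds DNA as a dimer held together by leucine zippers. FOS proteins do not form stable dimers with each other and need a JUN partner, whereas JUN proteins can pair among themselves. FOS, FOSB, JUN and JUNB are immediate early genes, which are transcribed within minutes of a growth factor or stress signal, while JUND is made more steadily. FOSL1 and FOSL2 encode FRA1 and FRA2, which lack the strong activation domain of FOS. AP-1 binds enhancers of many epithelial and wound response genes, and the study links its activity to that of BRG1.

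The libraries held 29699741 to 63613710 estimated counts, and mitochondrial genes took 5.18% to 6.00% of them in Control and 4.13% to 4.61% in BRG1 samples, without overlap. Levels are given as CPM, counts scaled to a common library size with TMM factors. The transfected gene was examined first. SMARCA4 was at 31.6, 36.7 and 33.3 CPM in Control samples 1 to 3 and at 2316, 1714 and 1729 CPM in BRG1 samples 1 to 3, plasmid transcripts included. The granulosa cell markers FOXL2 and AMHR2 were at 3 counts or fewer in every sample, and the 7 markers of that cell type summed to 6.39 to 10.2 CPM in Control and 13.9 to 19.6 CPM in BRG1 samples. The 4 immune markers summed to 7.53 to 14.7 CPM in Control and 7.78 to 16.2 CPM in BRG1 samples, with CD3E at 3 counts or fewer in every sample. The 3 endothelial markers summed to 0.586 to 1.98 CPM in Control and 72.6 to 83.9 CPM in BRG1 samples, of which VWF held most. The 12 interferon response genes summed to 455 to 538 CPM in Control and 4997 to 5628 CPM in BRG1 samples. The part of these shifts in the results below was not tested.

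The start sites of the family carry related letters, and the 4 promoters that the results turn on are shown for that reason: JUN and FOSL2, with the closest within-number folds, FOS, whose samples ran in another order, and JUND, whose fold change was nearest to 0. They were picked after their values were seen. The sequences are from RefSeq (GRCh38.p14), upstream of the start site, 5′ to 3′ on the gene's strand and without annotated exon bases. Capitals mark the letters TGACG on either strand, TGACGTCA (the cAMP response element, which contains TGACG) or TGACATCA (the variant of it in the JUN promoter). RefSeq promoters were matched for 6 of the 7 members, all except FOSL1. The RefSeq start of FOSL2 lies downstream of the GENCODE gene start given below, so its window lies inside the gene as GENCODE bounds it.
JUN, minus strand, chr1:58784049-58784269: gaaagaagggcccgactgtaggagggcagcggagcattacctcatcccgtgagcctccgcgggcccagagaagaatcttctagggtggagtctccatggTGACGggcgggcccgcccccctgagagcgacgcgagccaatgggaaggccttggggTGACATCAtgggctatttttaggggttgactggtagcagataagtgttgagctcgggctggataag
FOSL2, plus strand, chr2:28392608-28392801: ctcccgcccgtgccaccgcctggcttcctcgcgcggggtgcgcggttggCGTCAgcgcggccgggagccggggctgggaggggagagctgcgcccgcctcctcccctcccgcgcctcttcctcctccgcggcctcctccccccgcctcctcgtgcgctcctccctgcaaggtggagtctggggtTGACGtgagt
FOS, plus strand, chr14:75278578-75278825: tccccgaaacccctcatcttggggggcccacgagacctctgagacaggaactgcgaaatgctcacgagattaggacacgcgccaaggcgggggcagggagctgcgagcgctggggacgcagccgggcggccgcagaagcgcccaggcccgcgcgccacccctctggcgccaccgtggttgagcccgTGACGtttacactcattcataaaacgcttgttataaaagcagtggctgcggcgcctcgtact
JUND, minus strand, chr19:18281623-18281872: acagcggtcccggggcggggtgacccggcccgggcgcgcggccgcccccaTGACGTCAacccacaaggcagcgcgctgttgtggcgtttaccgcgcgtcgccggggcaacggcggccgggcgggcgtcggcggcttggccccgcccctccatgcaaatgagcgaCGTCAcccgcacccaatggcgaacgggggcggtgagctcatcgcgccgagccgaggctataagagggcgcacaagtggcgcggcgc

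All 6 matched members held TGACG within the 250 bases upstream of the start site, against 21.2% of 35116 RefSeq promoters of that length. In FOS, FOSB and FOSL2 a copy lay at nearly the same place, beginning at positions -64, -60 and -66 counted from the start site. JUN held TGACATCA beginning at position -67, a sequence found in 2.37% of promoters, and JUND held TGACGTCA beginning at position -200, found in 1.65%. The classical AP-1 site, TGANTCA, was in 6.57% of promoters and in 0 of the 6 members' windows. The members' 250-base windows held 62% (JUN) to 74.8% (JUND) G or C, and the comparison promoters were not matched for this. These matches describe letters and not bound sites.

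The JUN genes carried most of the family's transcripts. To set genes of different length side by side, CPM was divided by the length of each gene's merged exons in kilobases. In Control the per-length level was 140 ± 22.0 (SD, n = 3) for JUND, 138 ± 59.2 for JUNB, 70.9 ± 39.7 for JUN, 12.7 ± 8.24 for FOSL2, 11.5 ± 5.07 for FOS, 4.80 ± 3.32 for FOSB and 1.64 ± 0.841 for FOSL1, in CPM per kilobase. JUND and JUNB, and likewise FOSL2 and FOS, lay within each other's spread. With BRG1 the order was the same except that JUNB (187 ± 86.9) came before JUND (139 ± 19.4), again within their spread. With the longest transcript or the mean coding transcript as length, FOS came before FOSL2 in both groups. With the mean coding transcript, JUND (221) came before JUNB (187) in BRG1 samples as well. With no length, the BRG1 means were 391 CPM for JUN, 343 for JUNB and 268 for JUND. The order of the JUN genes with BRG1 thus depended on the length.

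JUN (ENSG00000177606, chromosome 1, 58776845 to 58784048, GRCh38, GENCODE 44) has 1 exon in its canonical transcript and encodes c-Jun, the subunit with the strongest activation domain of the JUN genes. Its level was 380.0, 292 and 98.6 CPM in Control samples 1 to 3 and 547, 471 and 153 CPM in BRG1 samples 1 to 3. The groups overlapped, because both samples numbered 3 were low and BRG1 sample 3 lay below Control samples 1 and 2. Within a number the BRG1 sample was higher each time, by 1.44, 1.62 and 1.55 times. Without the number in the fit, the log2 fold change was 0.61 (standard error, SE, 0.56) and the edgeR adjusted p was 0.635. With the replicate number as a block, JUN rose by 0.62 on the log2 scale (SE 0.08, edgeR adjusted p 0.00183).

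JUNB (ENSG00000171223, chromosome 19, 12791486 to 12793315, 1 exon) encodes a weaker activator that can act against c-Jun. It was at 371, 230.4 and 158 CPM in Control samples 1 to 3 and at 472, 391 and 165 CPM in BRG1 samples 1 to 3. The BRG1 sample was higher within each number, by 1.27, 1.70 and 1.05 times, the last a near tie. The blocked log2 fold change was 0.39, with a 95% interval of 0.08 to 0.70, and it missed the threshold after adjustment over all genes (edgeR adjusted p 0.0810), whereas DESeq2 with the block called it (adjusted p 0.0282). Exons of HOOK2, which the unstranded libraries cannot separate, cover 14.2% of the exonic bases of JUNB.

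JUND (ENSG00000130522, chromosome 19, 18279694 to 18281622, 1 exon) encodes the JUN protein that is most steadily made and often marks resting cells. It was at 319, 256 and 238 CPM in Control samples 1 to 3 and at 259, 309 and 236 CPM in BRG1 samples 1 to 3. Within each group the ratio of the highest to the lowest value, 1.34 in Control and 1.31 in BRG1 samples, was the smallest of the family. Within numbers the fold was 0.813, 1.21 and 0.994, and the blocked log2 fold change was -0.01 with a 95% interval of -0.29 to 0.26 (edgeR adjusted p 0.952). Its sign changed between scalings. The interval runs from 0.821-fold to 1.20-fold.

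FOSL2 (ENSG00000075426, chromosome 2, 28392448 to 28417317, 4 exons) encodes FRA2, a FOS protein known from epithelial and bone cells. It was at 131, 118 and 23.0 CPM in Control samples 1 to 3 and at 247, 222 and 44.4 CPM in BRG1 samples 1 to 3. The samples numbered 3 again stood far below the others in both groups. Within numbers the fold was 1.88, 1.87 and 1.93, which were the closest 3 values of any member. FOSL2 rose with the block by 0.92 on the log2 scale (SE 0.08, edgeR adjusted p 0.000196), against an SE of 0.74 without it (adjusted p 0.573).

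FOS (ENSG00000170345, chromosome 14, 75278826 to 75282230, 4 exons) encodes c-Fos, the classical immediate early partner of c-Jun. It was at 41.3, 18.6 and 49.8 CPM in Control samples 1 to 3 and at 64.4, 46.7 and 69.8 CPM in BRG1 samples 1 to 3. Here the samples numbered 3 were the highest of their groups and those numbered 2 the lowest, and BRG1 sample 2 overlapped the Control range. Within numbers the fold was 1.56, 2.52 and 1.40. FOS rose with the block by 0.81 on the log2 scale (SE 0.16, edgeR adjusted p 0.0120), whereas without it the log2 fold change was 0.72 and the adjusted p 0.292.

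FOSB (ENSG00000125740, chromosome 19, 45467995 to 45475179, 4 exons) encodes a FOS protein whose short splice form, delta FosB, is unusually stable; isoforms are summed here. It was at 47.7, 18.7 and 13.5 CPM in Control samples 1 to 3 and at 105, 53.5 and 16.8 CPM in BRG1 samples 1 to 3. Number 3 was the lowest in both groups and number 1 the highest. Within numbers the fold was 2.19, 2.86 and 1.24, and FOSB rose with the block by 1.01 on the log2 scale (SE 0.21, edgeR adjusted p 0.0142). Without the samples numbered 2 this call was lost (adjusted p 0.0786).

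FOSL1 (ENSG00000175592, chromosome 11, 65892049 to 65900573, 4 exons) encodes FRA1, a FOS protein often raised in invasive carcinoma. It was the scarcest member, at 4.45, 3.50 and 1.35 CPM in Control samples 1 to 3 and at 20.0, 11.4 and 1.27 CPM in BRG1 samples 1 to 3. Samples 1 and 2 of the BRG1 group lay above all Control samples, and BRG1 sample 3, with 38.7 estimated counts, lay below them. Within numbers the fold was 4.50, 3.25 and 0.939, so that the number 3 samples did not share the increase. The blocked log2 fold change was 1.41 (SE 0.39, edgeR adjusted p 0.0439). This call was lost without the samples numbered 1 (adjusted p 0.160) or numbered 2 (adjusted p 0.244), and without BRG1 replicate 3 the fit with no block called FOSL1 as well (adjusted p 0.0103).

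**Figure D1:**
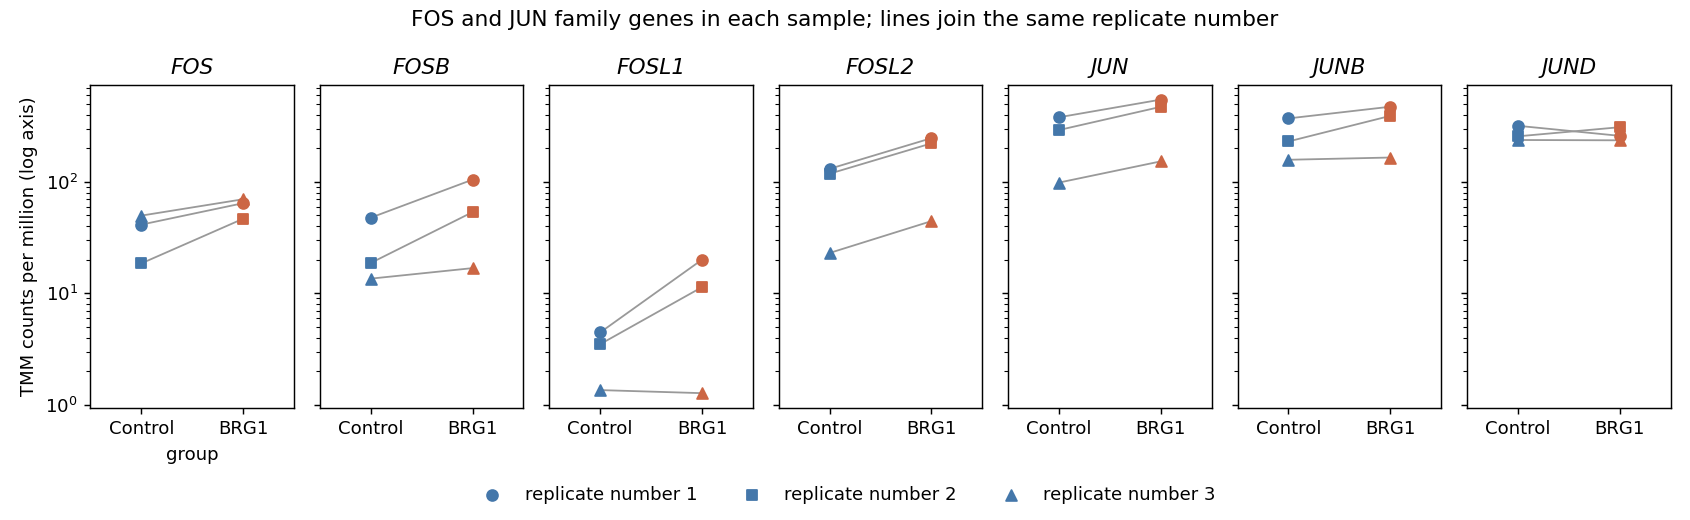
TMM CPM on a log axis for each gene in Control (blue) and BRG1 (orange) samples, with lines joining samples of the same replicate number (circle 1, square 2, triangle 3). The triangles lie lowest in both groups for every gene except FOS, for JUND by a small margin, and the lines for FOSL2 and JUN run parallel.

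In the fit without the replicate number, edgeR called 0 of the 7 members in either direction, where 9.57% of 14246 tested genes were called higher and 1.02% lower. None had an unadjusted p under 0.05 (0 members). DESeq2 likewise called 0 members, where it called 11.0% of its tested genes higher and 1.84% lower. By DESeq2, 1 member was at an unadjusted p under 0.05. The share of all tested genes at that unadjusted p is not reported here. With the block, 5 members were called higher and 0 lower by edgeR, where 13.7% of tested genes were called higher and 5.68% lower. These were FOS, FOSB, FOSL1, FOSL2 and JUN. DESeq2 with the block called 6 higher, JUNB in addition, and 0 lower, where 13.4% of its tested genes were called higher and 6.62% lower. The calls of FOS, FOSL2 and JUN were kept whichever of the 3 numbers was left out. The members' median log2 fold change was 0.72 without and 0.81 with the block, and that of all tested genes was -0.04 in both fits. In 5 members the BRG1 sample was higher within all 3 numbers, as in 26.2% of tested genes. In 0 members did every BRG1 sample lie above every Control sample, which 15.9% of tested genes showed.

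**Figure D2:**
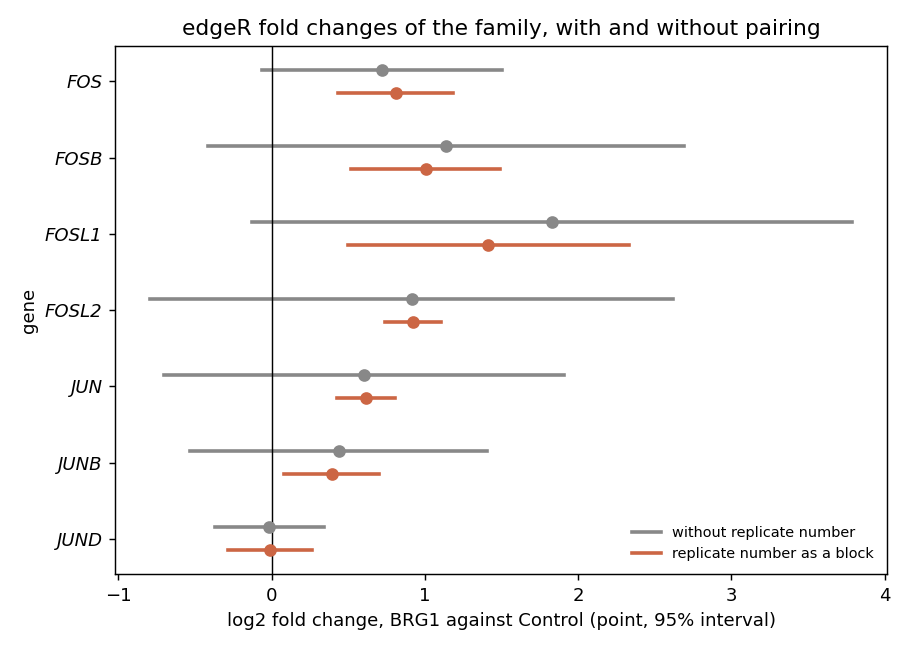
Points are edgeR log2 fold changes of BRG1 against Control with 95% intervals, without the replicate number (gray) and with it as a block (orange). Every gray interval crosses 0, while the orange intervals lie above 0 for all genes except JUND, whose orange interval runs from -0.29 to 0.26.

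In each member except FOS, the SD of log2 levels within a group exceeded the mean difference within numbers. The SD of log2 levels within a group was 1.39 for FOSL2 and 1.02 for JUN, whereas the SD of their within-number differences was 0.02 and 0.08. For FOSL1 these values were 1.41 and 1.11, and for the median tested gene they were 0.22 and 0.18. Number 3 stood apart from numbers 1 and 2 in the same direction in both groups. Against the mean of numbers 1 and 2, FOSL2 in number 3 was at 0.185 times in Control and 0.190 times in BRG1, JUN at 0.293 and 0.300 times, and JUNB at 0.525 and 0.383 times. Ordered from the lowest by the log2 difference between number 3 and the others, FOSL2 ranked 8, FOSL1 20, JUN 42, FOSB 54 and JUNB 187 of 14246 genes. JUND ranked 3161, and FOS ranked 13708, near the other end. Total counts were 61519212 in Control sample 3 and 29699741 in BRG1 sample 3. The part of library size in this order was not tested. What distinguished the samples numbered 3 was not given in the sources used here.

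The mix of family transcripts was examined as shares. Per length, JUND held 32.1%, 36.2% and 47.6% of the family level in Control samples 1 to 3 and 21.4%, 28.4% and 42.7% in BRG1 samples 1 to 3. Its share was lower with BRG1 within every number, by 10.7, 7.85 and 4.94 percentage points, yet the groups overlapped. The mean difference of -7.82 points became -3.11 points with BRG1 replicate 1 left out, -13.8 points with BRG1 replicate 3 left out and -3.33 points with Control replicate 3 left out. A two-sided exact permutation test over samples gave p = 0.4 for JUND (0.583 after Benjamini-Hochberg adjustment over 7 shares), and within numbers 3 samples a group allow no p below 0.25. JUN held 20.4%, 22.0% and 10.5% in Control and 24.1%, 23.0% and 14.7% in BRG1 samples, higher within each number, although without Control replicate 3 the difference of 2.98 points became -0.56. JUNB held 35.7% ± 3.23 (SD, n = 3) in Control and 36.8% ± 4.88 in BRG1 samples, a difference within the spread, and with no length 26.8% and 25.9%. FOSL1 remained the smallest share, at 0.414% ± 0.120 and 0.997% ± 0.730.

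**Figure D3:**
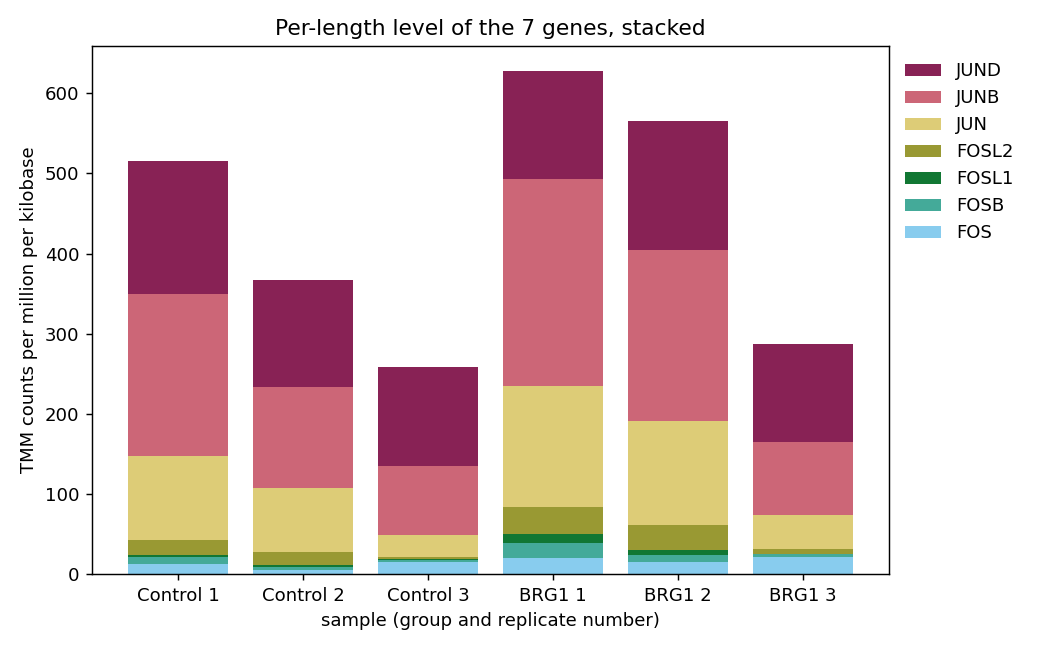
Stacked per-length levels of the 7 genes in each sample, in TMM CPM per kilobase of merged exons. The total runs from 259 in Control 3 to 628 in BRG1 1, and the JUN genes form most of every bar.

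The 4 FOS genes together were higher relative to the 3 JUN genes in BRG1 samples. Their summed per-length level was 42.2, 27.6 and 22.0 CPM per kilobase in Control samples 1 to 3 and 84.1, 61.2 and 31.8 in BRG1 samples 1 to 3. The JUN genes summed to 473, 339 and 237 in Control and to 543, 504 and 255 in BRG1 samples. Within numbers the FOS sum was thus 1.99, 2.22 and 1.45 times as high with BRG1, and the JUN sum 1.15, 1.49 and 1.08 times. The JUN sum was 11.2, 12.3 and 10.8 times the FOS sum in Control samples 1 to 3, and 6.46, 8.23 and 8.01 times in BRG1 samples 1 to 3. These ratios depend on the length chosen and are not counts of molecules. With the mean coding transcript they were 6.51, 7.94 and 5.30 in Control and 3.76, 5.01 and 3.95 in BRG1 samples. With no length they were 4.77, 4.89 and 5.63 in Control and 2.93, 3.52 and 4.19 in BRG1 samples. With each length the ratio of every BRG1 sample lay below that of every Control sample. The log2 ratio of FOS to JUN genes was -3.51 ± 0.10 (SD, n = 3) in Control and -2.91 ± 0.19 in BRG1 samples, a difference of 0.60, and within numbers it was higher by 0.79, 0.58 and 0.43. The difference was 0.59 with the longest transcript as length, 0.63 with the mean coding transcript and 0.53 with no length, and under each of them the groups did not overlap. An exact permutation test over samples gave p = 0.1 under each length, the smallest that 3 samples against 3 allow. An exact test that flips the signs of the within-number differences gave p = 0.25, the smallest that 3 pairs allow. The lengths were applied to the same 6 samples and are not separate evidence. Among single tested genes, 15.9% had every BRG1 sample above every Control sample.

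**Figure D4:**
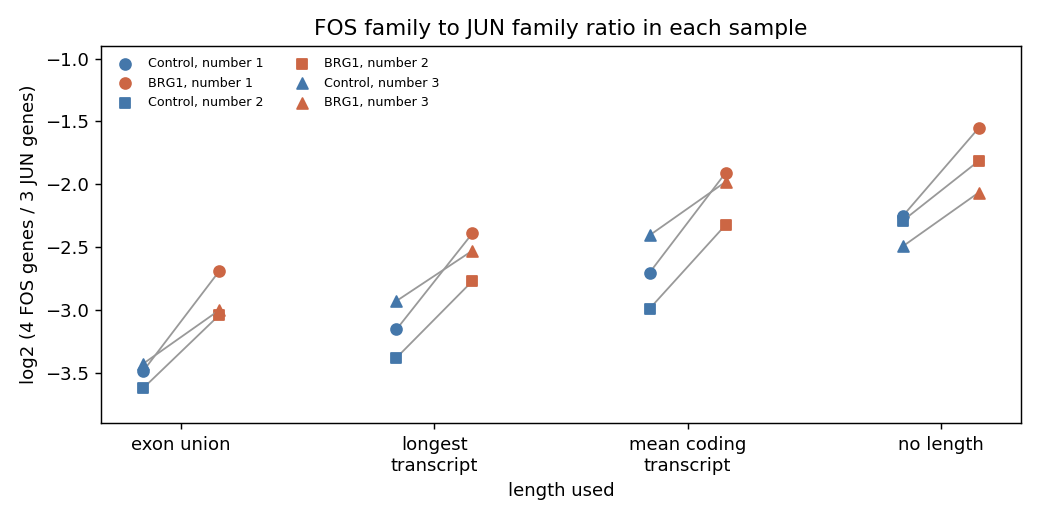
Log2 ratio of the summed FOS genes to the summed JUN genes in each sample, under 4 choices of gene length, with lines joining the same replicate number. Under each choice the 3 BRG1 points (orange) lie above the 3 Control points (blue), and the level moves with the length chosen.

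Other genes around AP-1 were compared by lists. Of 13 other immediate early genes, 2 were called higher and 0 lower without the block, and 8 and 0 with it, with a median log2 fold change of 1.20 and 1.11. Over all tested genes edgeR called 9.57% higher and 1.02% lower without the block, and 13.7% and 5.68% with it. CTGF, a matrix protein gene, was at 101, 82.6 and 92.0 CPM in Control samples 1 to 3 and at 1151, 542 and 217 CPM in BRG1 samples 1 to 3, and rose by 2.79 on the log2 scale (edgeR adjusted p 0.0116). The zinc finger gene EGR3 and the survival gene IER3 had blocked log2 fold changes of 2.52 and 2.16 and were called by edgeR with the block but not without it, whereas DESeq2 without the block called IER3 (adjusted p 0.0189) and not EGR3. EGR1, which responds to the same signals as FOS, was at 569, 225 and 401 CPM in Control and 733, 466 and 434 CPM in BRG1 samples. Like FOS it was lowest in Control sample 2. Among BRG1 samples, however, EGR1 was lowest in sample 3, where FOS was highest. With the block EGR1 missed the threshold by edgeR (adjusted p 0.0791), whereas DESeq2 with the block called it (adjusted p 0.0143). IER2 had folds of 0.907, 1.21 and 1.01 within numbers. In the number 3 order EGR1 ranked 4933 and IER2 980, outside the ranks of the 5 members that were low. The other genes of this list were not ranked, and they did not behave alike in number 3. EGR3 was low there, at 0.221 times the mean of numbers 1 and 2 in Control and 0.139 times in BRG1. IER3 was likewise lowest in number 3 of both groups, whereas CTGF in Control sample 3 lay between Control samples 1 and 2.

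**Figure D5:**
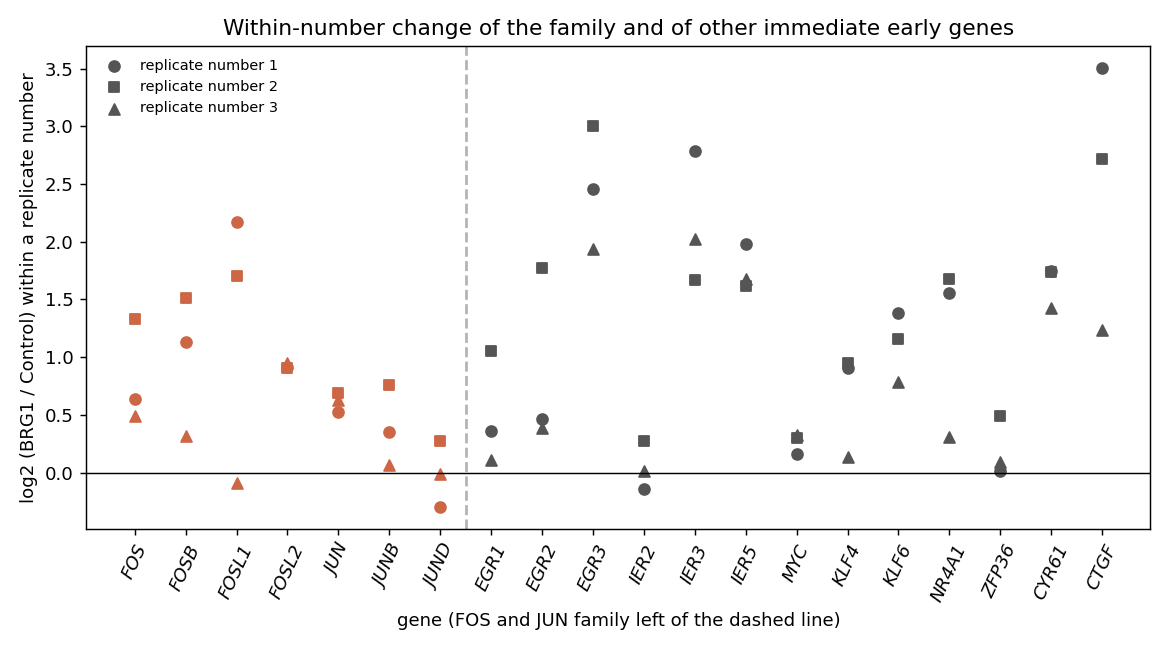
Log2 ratio of BRG1 to Control within each replicate number for the 7 family genes (orange) and 13 other immediate early genes (gray). FOSL2 and JUN have the tightest triplets in the family, and EGR3, IER3, IER5, KLF6, CYR61 and CTGF lie above all JUN genes in each number.

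Among 14 genes of turnover and feedback, 3 were called higher and 0 lower without the block, and 6 and 0 with it. Of all tested genes, 9.57% were called higher without the block and 13.7% with it. DUSP1, a phosphatase that switches off the kinases upstream of AP-1, was at 60.0, 42.6 and 23.0 CPM in Control samples 1 to 3 and at 389, 185 and 69.4 CPM in BRG1 samples 1 to 3. It rose by 2.36 on the log2 scale (edgeR adjusted p 0.0474) and ranked 70 in the number 3 order. TRIB2, a pseudokinase, and the phosphatase DUSP10 were called in both fits, with log2 fold changes of 2.52 and 4.30. TRIB1, DUSP4 and DUSP5 were called with the block alone, at 0.44, 1.08 and 1.37.

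Upstream kinases were compared next. Of 19 genes of the MAP kinase cascade, 0 were called without the block by edgeR or DESeq2, with 3 at an unadjusted p under 0.05 by each tool. With the block edgeR called 2 higher and 0 lower, MAP3K1 (log2 fold change 0.96) and MAP2K1 (0.51), where 13.7% of all tested genes were called higher. Of 12 genes for factors that bind the FOS and JUN promoters, 0 were called without the block by edgeR or DESeq2. By each tool 2 of them were at an unadjusted p under 0.05. Without the block, edgeR called 9.57% of all tested genes higher and 1.02% lower, and DESeq2 11.0% and 1.84%. The share of all tested genes at an unadjusted p under 0.05 is not reported here, so nothing is read from the unadjusted counts of the 2 lists. With the block, where edgeR called 5.68% of all tested genes lower, it called 2 of the 12 lower and 0 higher. These were SRF, at 365, 364 and 212 CPM in Control and 245, 294 and 179 CPM in BRG1 samples, and its cofactor ELK1, with blocked log2 fold changes of -0.38 and -0.37.

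Among 13 tested genes of other AP-1 dimer partners, 2 were called higher without the block, BATF2 among them, and 5 with it, among them ATF3, JDP2 and MAFF, while 0 were called lower. Of all tested genes, 9.57% were called higher without the block and 13.7% with it. These shares also stand beside the target and interferon lists below. ATF3, a stress-induced partner of JUN, was at 326, 275 and 48.2 CPM in Control and at 466, 321 and 90.5 CPM in BRG1 samples, with number 3 low in both groups. Of 17 tested textbook AP-1 target genes, 8 were called higher and 0 lower without the block, and 11 and 0 with it. The study chose some of these on its own data, CD44 among them, so they are no independent evidence of a direction. KRT6A, a wound-response keratin, was at 9.92, 6.56 and 4.65 CPM in Control and at 3000.2, 2196 and 1218 CPM in BRG1 samples, and CD44, the hyaluronan receptor, at 1.63, 1.20 and 0.866 CPM and 214, 125 and 57.4 CPM. IVL, a cornified envelope protein gene, was at 0.0329 to 0.0800 CPM in Control and 10.5 to 46.0 CPM in BRG1 samples. Among the BRG1 samples, each of the 3 was lowest in sample 3. All 12 interferon response genes were called higher in both fits.

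The genes whose profile over the 6 samples was nearest to that of JUN, by the root mean square difference of mean-centred log2 levels, were MIDN (0.117), BCL6 (0.146) and OSGIN1 (0.184), against a median of 0.919 over 14245 genes. MIDN was at 120.5, 101 and 30.5 CPM in Control samples 1 to 3 and at 149, 160 and 45.0 CPM in BRG1 samples 1 to 3. Nearest to FOS were ST6GAL1 (0.11), RP11-552F3.12 (0.152) and SLFN5 (0.154), against a median of 0.673. These genes were picked for likeness over the same 6 samples, so the low samples they share follow from the choice. The 3 genes near JUN were low in both samples numbered 3, and the 3 near FOS were lowest in Control sample 2. RP11-552F3.12 was scarce, at 0.302 to 2.36 CPM over the samples.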

How the data were processed

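The authors checked reads with FastQC 0.11.5, aligned them with STAR 2.5.3a (hg38, GENCODE 24), and ran salmon 0.8.2 and tximport. The deposited table therefore holds 1 estimated count for each gene symbol (lengthScaledTPM), still at the scale of its library. Libraries were unstranded, from 500 ng of RNA, with 78-base read pairs. Totals of 29699741 to 63613710 limit counting precision.

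Estimated counts were rounded and fitted over the whole table with the quasi-likelihood test of edgeR 4.0.16 in R 4.3.3 (TMM factors, filterByExpr, no covariate), with Benjamini-Hochberg adjustment over 14246 genes and a threshold of 0.05. The study used DESeq2, run here (1.42.0) as an alternative. In tests here on simulated data, the blocked fits of both tools made a larger share of false calls than the threshold names in every setting, and the fits without the block did where no block effect was simulated, so calls near 0.05 are less firm. The simulated differences between numbers were absent or smaller than those of most members here. The share of false calls at differences as large as theirs was not tested. Standard errors are the log2 fold change divided by the root of F.

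Samples of the same number deviated together (r = 0.480, 0.486 and 0.562 over genes; other combinations -0.488 to 0.0721), and the submitters describe 3 biological replicates, so the numbers were taken to pair samples and the blocked values stand beside the others. P-values of the fits without the block are set against the spread between samples of a group. Those of the fits with the block are set against the spread of the differences within numbers.

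Lengths and positions are from GENCODE 44 (GRCh38). The members, lists and rule for named genes were chosen with earlier results of these data known: all members; list genes called in either edgeR fit where 6 or fewer, otherwise the 3 largest changes; EGR1, DUSP1, IER2 and SMARCA4; and the 3 nearest profiles to JUN and FOS, on log2(CPM + 0.5). Proteins were not analysed here. Some list genes are not reported here by name.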

Additional observations from a re-analysis of the deposited data

How the results depend on the processing

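The members called higher without the block (0) were 0 with DESeq2, median-ratio size factors or no low-count filter, and ran from 0 to 1 when each sample was left out (1 without BRG1 replicate 3, FOSL1). With the replicate block they were 5 with edgeR and 6 with DESeq2. Leaving out a replicate number under the block, edgeR called 3 to 6 and DESeq2, an alternative chosen after seeing the data, 4 to 6. No member was called lower in any of these fits (0 members). The log2 fold change of JUND (-0.01) was 0.0029 with median-ratio factors, 0.00052 with DESeq2 and 0.00079 with DESeq2 and the block, ran from -0.10 to 0.11 without each sample, from -0.16 to 0.13 without each number under the edgeR block (0.028 without number 3) and from -0.14 to 0.13 under the DESeq2 block (0.015 without number 3). Over the pathway lists, genes called higher (27) were 44 with the edgeR block and 46 with the DESeq2 block. Of all tested genes, 9.57%, 13.7% and 13.4% were called higher in these fits. In each of them, 12 of the list genes called higher were interferon response genes. List genes called lower (0) were 2 and 4 with the blocks. Of all tested genes, 1.02%, 5.68% and 6.62% were called lower in the same fits. The FOS to JUN log2 ratio difference (0.60) ran from 0.53 to 0.63 under the other lengths and from 0.49 to 0.66 without each sample. Share differences moved by less than the SD between replicates, but some changed sign without 1 sample: FOS from 1.10 to -0.48 points (without BRG1 replicate 3), JUN from 2.98 to -0.56 (without Control replicate 3) and JUNB from 1.13 to -1.03 (without BRG1 replicate 1) and -0.03 (without Control replicate 3), JUNB also with no length (-0.92). The pairing left mean differences in share and ratio as they were. The causes were not tested. The depth limits FOSL1 most, at 38.7 counts in BRG1 sample 3.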
